A study of Homo sapiens with 9 samples.

Results

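The 10 genes described here encode subunits of AP-1, the dimeric transcription factor built from proteins of the JUN, FOS, ATF and BATF families. They were taken by gene name from the deposited table of normalized counts and are JUN, JUNB, JUND, FOS, FOSB, FOSL1, FOSL2, ATF3, ATF2 and BATF3, that is 10 of 62710 genes. All 10 passed the filter of a mean normalized count of at least 10 over the 9 libraries, which left 15230 genes to test.

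The cells were A375R, a single human melanoma line resistant to PLX4032, an inhibitor of mutant BRAF, and kept in medium with PLX4032, so all groups share that background. The groups were DMSO, the solvent control, VHL-r at 10 µM for 2 h, and R4VPL3-1 at 10 µM for 2 h, with 3 independent repeats each. The titles of the control samples name them as wild type, with neither dose nor time, while the columns of 2 of these 3 in the table carry the time. They are called DMSO here, as in the study's methods. R4VPL3-1 joins a ligand of the ubiquitin ligase RNF4 to a ligand of the ubiquitin ligase VHL, and VHL-r is the VHL-binding end without the rest. The comparison of R4VPL3-1 with VHL-r at the same dose and time therefore asks what the full molecule did beyond its VHL-binding end. The recovered totals lay between 26435568 and 32085626 reads per library. The counting error of a member in a library was at most 11.0% for BATF3, at most 8.98% for FOS and at most 4.24% for the others.

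The markers fixed for melanoma and melanocytes were present in part. Of 8, 6 had a mean of at least 10, MLANA was listed at 0 in all libraries and TYR reached at most 2.14. The summed normalized count of the 8 ranged from 22878 to 24657 in DMSO, from 13656 to 17016 in VHL-r and from 12182 to 14590 in R4VPL3-1. SOX10, a lineage factor of melanocytes, gave most of that sum, with a mean of 17547 in DMSO, 10199.7 in VHL-r and 8405 in R4VPL3-1. Of 4 markers each, the leukocyte markers summed to at most 26.9 in any library and the keratinocyte and epithelial markers to between 251 and 394. The 4 fibroblast markers summed to between 1403 and 3087 and the 4 endothelial markers, mostly KDR, to between 421 and 699. In bulk RNA, fewer cells of a type and less RNA per cell cannot be told apart, and the part of these marker levels in the results below was not tested.

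AP-1 proteins bind DNA as pairs through a basic leucine zipper. JUN proteins can pair with themselves or with FOS and ATF proteins, whereas FOS proteins need a partner such as JUN. FOS, JUN and several relatives are immediate-early genes, transcribed within minutes of growth factors or stress without new protein synthesis, and their mRNAs are short-lived. The JNK kinases phosphorylate JUN and ATF2, and both proteins act on the JUN promoter. ATF3 is a stress-induced member that can repress its targets, and FOSL1 is known as an ERK-dependent member that is abundant in dedifferentiated melanoma.

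In R4VPL3-1, JUN transcripts stood 15.3-fold above VHL-r and 8.96-fold above DMSO, and ATF3, FOS and JUND were also above both. JUNB and FOS were above DMSO with either compound. FOSL1, the most abundant member per kb in every group, was below DMSO with either compound, as were FOSL2 and ATF2. For ATF2 the call in R4VPL3-1 was lost in 9 of 21 alternatives. Members were called where limma's p, adjusted for all genes by Benjamini-Hochberg, was 0.05 or less. For R4VPL3-1 against VHL-r, 4 of the 10 were called higher, where 1.14% of the 15230 tested genes were called higher. None was called lower, where 0.729% of all genes were, and 1 member, FOSB, was lower at an unadjusted p under 0.05. edgeR and DESeq2 on the recovered reads also called 4 higher and 0 lower. Without DMSO replicate 1 the count called lower was 1, again FOSB.

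Against DMSO, R4VPL3-1 had 5 members called higher and 4 called lower, beside 13.1% and 11.8% of all tested genes. DESeq2 called 5 higher and 2 lower there. VHL-r had 3 members called higher and 4 called lower against DMSO, beside 10.3% and 9.51% of all tested genes. The median log2 fold change of the 10 members was 0.12 for R4VPL3-1 against VHL-r, 0.36 for R4VPL3-1 against DMSO and -0.08 for VHL-r against DMSO, and over all tested genes it was within 0.01 of zero in each. The 3 comparisons share libraries, and their calls are therefore given side by side and not counted against each other.

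The JUN genes encode the usual partners of FOS proteins. JUN (ENSG00000177606) is a gene of 1 exon in its MANE transcript, on the minus strand of chromosome 1 from 58776845 to 58784048 of GRCh38. Its normalized counts were 2301, 1813 and 1853 in DMSO replicates 1, 2 and 3, and 1195, 1064 and 1229 in VHL-r. In R4VPL3-1 they were 23741, 19158 and 12252. Every R4VPL3-1 library was several-fold above every other library, and the VHL-r libraries were all below the DMSO libraries. The log2 fold change of R4VPL3-1 against VHL-r was 3.93 (standard error 0.14, 95% interval 3.63 to 4.23, limma adjusted p = 1.14e-13), which ranked 4 from the top of the 15230 genes. Against DMSO it was 3.16 (standard error 0.14, adjusted p = 9.51e-13). VHL-r was below DMSO by a log2 fold change of -0.77 (standard error 0.14, adjusted p = 0.000513), which did not pass with the robust option of limma, at an adjusted p of 0.0811. The R4VPL3-1 replicates spread more than the others, with the highest 1.94 times the lowest, against 1.27 in DMSO and 1.16 in VHL-r.

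The promoter windows of JUN, JUND and FOS are shown because these members were above both other groups in R4VPL3-1 and their RefSeq start is that of the MANE transcript. Each run is the 250 bases before the start on the coding strand, from RefSeq on GRCh38.p14, and capitals mark any match to 7 motifs searched on both strands.
JUN, chr1:58784048-58784297, minus strand: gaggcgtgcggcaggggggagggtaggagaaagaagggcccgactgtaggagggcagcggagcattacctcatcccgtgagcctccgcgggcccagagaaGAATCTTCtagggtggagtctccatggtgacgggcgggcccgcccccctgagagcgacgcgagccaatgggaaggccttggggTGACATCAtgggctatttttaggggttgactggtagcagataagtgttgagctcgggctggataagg
JUND, chr19:18281623-18281872, minus strand: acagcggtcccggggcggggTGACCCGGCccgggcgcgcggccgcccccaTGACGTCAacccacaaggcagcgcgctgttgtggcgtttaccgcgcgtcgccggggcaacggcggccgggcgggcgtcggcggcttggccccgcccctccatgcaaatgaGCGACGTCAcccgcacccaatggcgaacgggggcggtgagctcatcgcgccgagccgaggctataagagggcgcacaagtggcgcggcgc
FOS, chr14:75278578-75278827, plus strand: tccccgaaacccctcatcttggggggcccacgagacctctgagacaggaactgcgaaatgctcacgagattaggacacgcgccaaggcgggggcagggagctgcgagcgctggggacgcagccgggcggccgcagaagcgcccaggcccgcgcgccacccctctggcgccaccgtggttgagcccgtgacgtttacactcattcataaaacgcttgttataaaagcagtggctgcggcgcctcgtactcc

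The motifs were TGANTCA, the classical AP-1 site, TGACGTCA, the cAMP response element, TGACATCA, the form of that element known from the JUN promoter, GAANNTTC, a pair of heat shock factor units, TGACNNNGC, the core of the antioxidant response element, TGATGNAA, a composite of C/EBP and ATF sites, and the CArG box, bound by SRF. The JUN window held TGACATCA at -67 to -60 and GAANNTTC at -150 to -143 from the start. These letters occur in 2.37% and 5.78% of the 35116 promoter windows of the same length. The JUND window held TGACGTCA at -200 to -193 and TGACNNNGC at -230 to -222 and at -90 to -82, which 1.65% and 10.9% of all windows hold. None of these matches overlapped another. The FOS window held no match to any of the 7, and neither did those of JUNB, FOSB and FOSL2. TGANTCA, held by 6.57% of all windows, and the CArG box, held by 1.16%, were in no member's window. Bases further upstream than 250 were not searched, so a site there would be missed. Within the windows only runs that fit these letters were marked, so a variant form of a site would be missed too. Of the 10 members, 7 had a window. For ATF3 the table gives windows that lie 43354 and 6257 bases from the MANE start, and of these the first held TGACATCA and TGATGNAA (3.14% of all windows). A match is a run of letters in these windows and no evidence of binding.

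JUNB (ENSG00000171223, chromosome 19, 12791486 to 12793315, plus strand, 1 exon) encodes a JUN protein that can dampen the activity of JUN. For this gene the normalized counts were 2627, 2283 and 2377 in DMSO. They were 3901, 4194 and 5163 in VHL-r, and 3631, 4196 and 4253 in R4VPL3-1. All libraries of both compounds were above all DMSO libraries, and the compounds overlapped. JUNB rose by a log2 fold change of 0.86 in VHL-r (standard error 0.08, adjusted p = 1.11e-07) and 0.73 in R4VPL3-1 (standard error 0.08, adjusted p = 6.65e-07) against DMSO. The difference between R4VPL3-1 and VHL-r was -0.13 (95% interval -0.29 to 0.04, adjusted p = 0.691).

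JUND (ENSG00000130522, chromosome 19, 18279694 to 18281622, minus strand, 1 exon) encodes the JUN protein that is usually made at a steady level and less dependent on stimuli. Normalized counts of JUND were 2147, 1631 and 1883 in DMSO, 2492, 2414 and 2557 in VHL-r and 4712, 4396 and 3531 in R4VPL3-1. The groups did not overlap, with DMSO lowest and R4VPL3-1 highest. R4VPL3-1 was above VHL-r by a log2 fold change of 0.75 (standard error 0.09, adjusted p = 1.47e-05) and above DMSO by 1.16 (standard error 0.09, adjusted p = 2.97e-09). VHL-r was above DMSO by 0.41 (standard error 0.09, adjusted p = 0.00195), but with the robust option the adjusted p was 0.0625.

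FOS (ENSG00000170345, chromosome 14, 75278826 to 75282230, plus strand, 4 exons) encodes the founding FOS protein. Its normalized counts were 161, 122 and 191 in DMSO, the lowest level per kb of the 10 members there. They were 423, 473 and 573 in VHL-r and 1251, 1145 and 792 in R4VPL3-1. The 3 groups did not overlap. FOS was higher in VHL-r than in DMSO by a log2 fold change of 1.64 (standard error 0.15, adjusted p = 1.11e-07), and in R4VPL3-1 than in DMSO by 2.74 (standard error 0.15, adjusted p = 2.52e-11). Between R4VPL3-1 and VHL-r the difference was 1.10 (standard error 0.15, 95% interval 0.78 to 1.42, adjusted p = 0.000132). With the robust option its adjusted p was 0.0727, and the call held under the other alternatives.

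FOSB (ENSG00000125740, chromosome 19, 45467995 to 45475179, plus strand, 4 exons) is a further immediate-early member. For this gene the normalized counts were 2065, 793 and 1091 in DMSO, 1499, 1641 and 1860.0 in VHL-r and 1120, 1281 and 1233 in R4VPL3-1. DMSO replicate 1 was above every other library and DMSO replicate 2 below every other library, so that the DMSO group spanned both compounds. FOSB was not called in any comparison, with log2 fold changes of -0.46 for R4VPL3-1 against VHL-r (95% interval -0.86 to -0.05, adjusted p = 0.402), 0.45 for VHL-r against DMSO (0.05 to 0.86, adjusted p = 0.116) and -0.0048 for R4VPL3-1 against DMSO (-0.41 to 0.40, adjusted p = 0.99). Without DMSO replicate 1, whose column name in the file lacks the time that those of the other DMSO columns carry, all 3 comparisons passed. R4VPL3-1 was then below VHL-r by a log2 fold change of -0.46 (adjusted p = 0.00622), VHL-r above DMSO by 0.83 (adjusted p = 5.57e-06) and R4VPL3-1 above DMSO by 0.38 (adjusted p = 0.0115). Over all alternatives, R4VPL3-1 against DMSO ran from -0.31 to 0.38, so its sign was not stable. VHL-r against DMSO ran from 0.15 to 0.83, with adjusted p up to 0.637. Every R4VPL3-1 library was below every VHL-r library.

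DMSO replicate 1 was the highest DMSO library for 7 of the 10 members. The calls of JUN, JUNB, JUND, FOS, FOSL1 and FOSL2 in all 3 comparisons, and of ATF3 in both comparisons with R4VPL3-1, were unchanged without it. In R4VPL3-1, replicate 3 was the lowest library for 7 of the 10, among them JUN, FOS, JUND and ATF3. Without R4VPL3-1 replicate 3 these 4 were still called above VHL-r.

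FOSL1 (ENSG00000175592, chromosome 11, 65892049 to 65900573, minus strand, 4 exons) encodes FRA1, which lacks the transactivation domain of FOS. Normalized counts of FOSL1 were 23658, 19434 and 17996 in DMSO, 16316, 16016 and 14359 in VHL-r and 14514, 15054 and 12167 in R4VPL3-1. Every library of either compound was below every DMSO library. FOSL1 was lower than DMSO by a log2 fold change of -0.38 in VHL-r (standard error 0.08, adjusted p = 0.00174) and -0.55 in R4VPL3-1 (standard error 0.08, adjusted p = 3.07e-05). The first of these was lost with the robust option (adjusted p = 0.0819). R4VPL3-1 and VHL-r differed by -0.17 (95% interval -0.33 to 0.0035, adjusted p = 0.518).

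FOSL2 (ENSG00000075426, chromosome 2, 28392448 to 28417317, plus strand, 4 exons) encodes FRA2, close in build to FRA1. Its normalized counts were 2183, 1924 and 1778 in DMSO, 1380.0, 1506 and 1403 in VHL-r and 1620.0, 1715 and 1508 in R4VPL3-1. The groups did not overlap, although the highest VHL-r and the lowest R4VPL3-1 libraries nearly met. FOSL2 was lower than DMSO by a log2 fold change of -0.45 in VHL-r (standard error 0.07, adjusted p = 5.11e-05) and -0.28 in R4VPL3-1 (standard error 0.07, adjusted p = 0.00439). R4VPL3-1 and VHL-r differed by 0.17 (95% interval 0.03 to 0.32), which did not pass over all genes (adjusted p = 0.326). FOSL2-AS1, the one antisense gene named for a member, was at most 7.96 in any library and was not tested.

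ATF3 (ENSG00000162772, chromosome 1, 212565334 to 212620777, plus strand, 4 exons) was the second member with a several-fold difference between the compounds. For this gene the normalized counts were 1071, 657 and 655 in DMSO, 819, 834 and 844 in VHL-r and 3891, 2855 and 2130 in R4VPL3-1. VHL-r lay inside the DMSO range, and every R4VPL3-1 library was above all others. R4VPL3-1 exceeded VHL-r by a log2 fold change of 1.79 (standard error 0.16, adjusted p = 3.86e-07) and DMSO by 1.89 (standard error 0.16, adjusted p = 1.8e-08). VHL-r and DMSO differed by 0.11 (95% interval -0.23 to 0.45, adjusted p = 0.723), and by 0.34 without DMSO replicate 1.

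ATF2 (ENSG00000115966, chromosome 2, 175072250 to 175168382, minus strand, 14 exons) encodes a JNK and p38 substrate that is regulated mainly as a protein. Normalized counts of ATF2 were 703, 731 and 719 in DMSO, 604, 583 and 610 in VHL-r and 607, 628 and 650 in R4VPL3-1. Both compounds lay below DMSO. The log2 fold change against DMSO was -0.26 in VHL-r (standard error 0.07, adjusted p = 0.0065) and -0.19 in R4VPL3-1 (standard error 0.07, adjusted p = 0.0348). The second was lost when any one of DMSO replicates 1, 2 and 3 or R4VPL3-1 replicates 1 and 2 was left out (adjusted p of 0.0579, 0.118, 0.0761, 0.135 and 0.0803), and also with no filter (0.0502), upper quartile scaling (0.0588) or DESeq2 (0.0662). R4VPL3-1 and VHL-r differed by 0.07 (95% interval -0.07 to 0.20, adjusted p = 0.865).

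BATF3 (ENSG00000123685, chromosome 1, 212686417 to 212699840, minus strand, 3 exons), best known from dendritic cells, lies 65640 bases from ATF3. Its normalized counts were 127, 144 and 128 in DMSO, 114, 110.3 and 94.2 in VHL-r and 104, 105 and 87.8 in R4VPL3-1. Both compounds lay below DMSO. At these low counts the counting error of a library (8.28% to 11.0%) was about the spread between replicates (coefficient of variation 7.04%, 9.92% and 9.82%). The log2 fold change against DMSO was -0.42 in R4VPL3-1 (standard error 0.14, adjusted p = 0.0287), lost without DMSO replicate 2 (adjusted p = 0.125) or R4VPL3-1 replicate 3 (adjusted p = 0.106) and with DESeq2 (adjusted p = 0.0795), and -0.32 in VHL-r (standard error 0.14, adjusted p = 0.115). R4VPL3-1 and VHL-r differed by -0.10 (95% interval -0.39 to 0.19, adjusted p = 0.916).

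**Figure D1:**
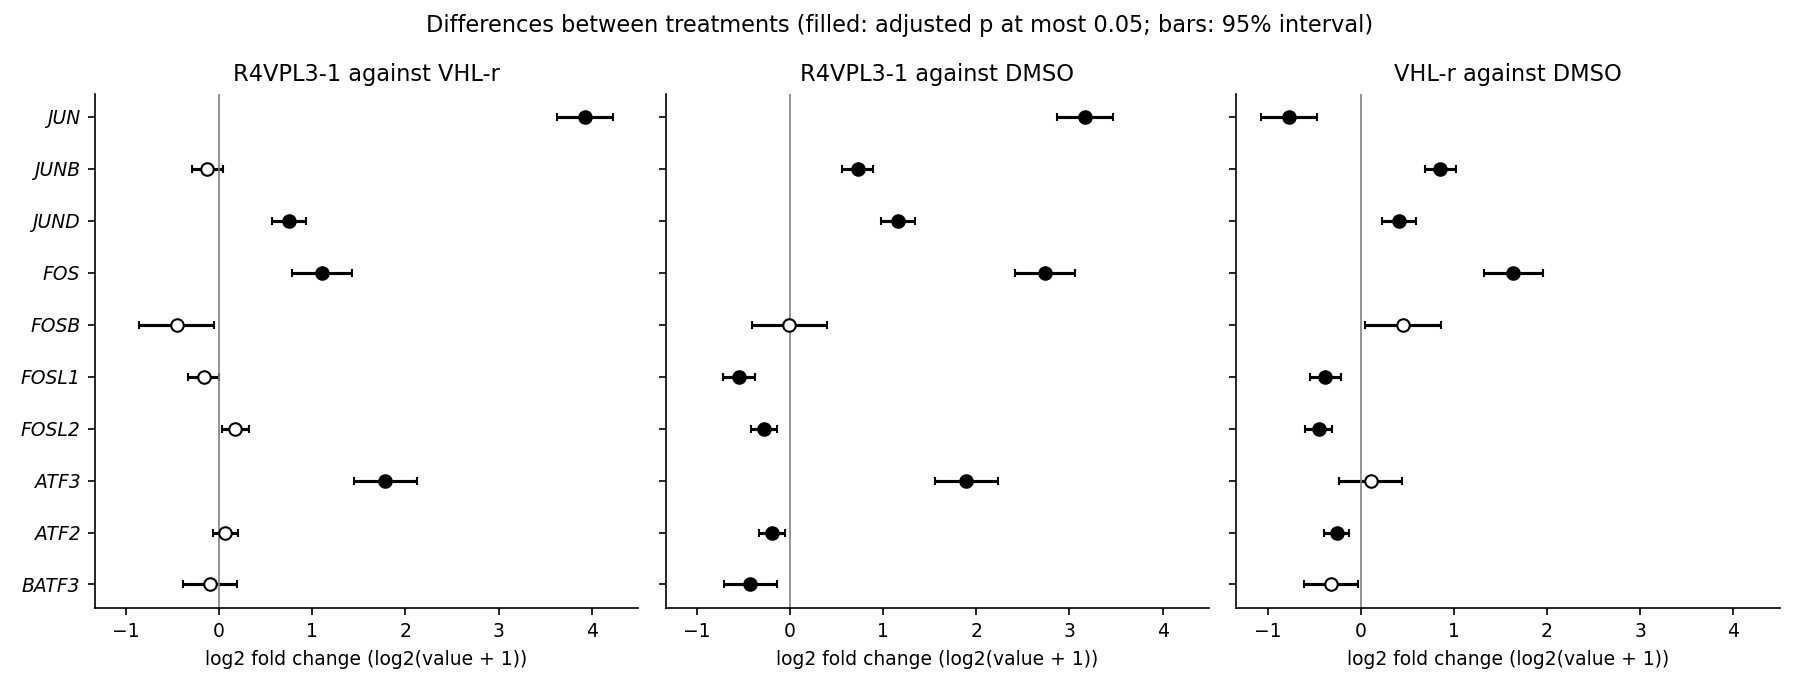
Log2 fold change of each AP-1 gene (horizontal axes, on log2(value + 1)) in the 3 comparisons, with 95% intervals from limma and filled points for an adjusted p of at most 0.05. JUN, ATF3, FOS and JUND stand right of zero in both comparisons of R4VPL3-1, and FOSL1, FOSL2 and ATF2 stand left of zero in both comparisons with DMSO.

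Levels of different genes were set side by side only per kb of MANE transcript. In DMSO the order was FOSL1 with 11964 ± 1729 normalized counts per kb (SD, n = 3), JUNB with 1327 ± 97.3, JUND with 978 ± 134, JUN with 611 ± 83.2, ATF3 with 409 ± 123, FOSB with 349 ± 176, FOSL2 with 292 ± 30.6, ATF2 with 172 ± 3.39, BATF3 with 159 ± 11.2 and FOS with 75.0 ± 16.4. The libraries of neighbours in this order overlapped for ATF3 and FOSB, FOSB and FOSL2, and ATF2 and BATF3, and were separate otherwise. In VHL-r, JUN took the sixth place with 357 ± 26.7 per kb and FOS stood seventh with 233 ± 36.1. In R4VPL3-1, JUN stood second with 5644 ± 1776 per kb, and its range overlapped that of FOSL1, which had 8174 ± 902. JUNB, JUND and ATF3 followed with 2201 ± 188, 2184 ± 317 and 1525 ± 456 per kb, and JUNB overlapped JUND, as JUND did ATF3. FOS reached 505 ± 114, the sixth place.

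The make-up of AP-1 transcripts differed between the groups accordingly. Summed per kb, the 10 members gave 16337 ± 2305 normalized counts per kb in DMSO, 14793 ± 142 in VHL-r and 21064 ± 3297 in R4VPL3-1. The 4 FOS genes made up 77.5% ± 1.18 of that sum in DMSO, 67.8% ± 3.02 in VHL-r and 44.1% ± 2.95 in R4VPL3-1. The 3 JUN genes made up 17.9% ± 1.21, 27.5% ± 3.00 and 47.4% ± 1.98 in the same order. FOSL1 alone went from 73.2% ± 1.39 in DMSO to 61.8% ± 3.61 in VHL-r and 39.0% ± 2.67 in R4VPL3-1. The shares are parts of the same sum, so a rise in JUN lowers those of the others. Per kb, FOSL1 itself was 11964 ± 1729 in DMSO, 9144 ± 619 in VHL-r and 8174 ± 902 in R4VPL3-1. Between the compounds FOSL1 was not called. JUN alone held 3.74% ± 0.11 in DMSO, 2.41% ± 0.20 in VHL-r and 26.3% ± 4.57 in R4VPL3-1. JUNB held the largest part of the JUN genes in VHL-r, at 16.3% ± 2.61 of the whole. These shares describe transcripts, and protein or dimers were not measured here.

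**Figure D2:**
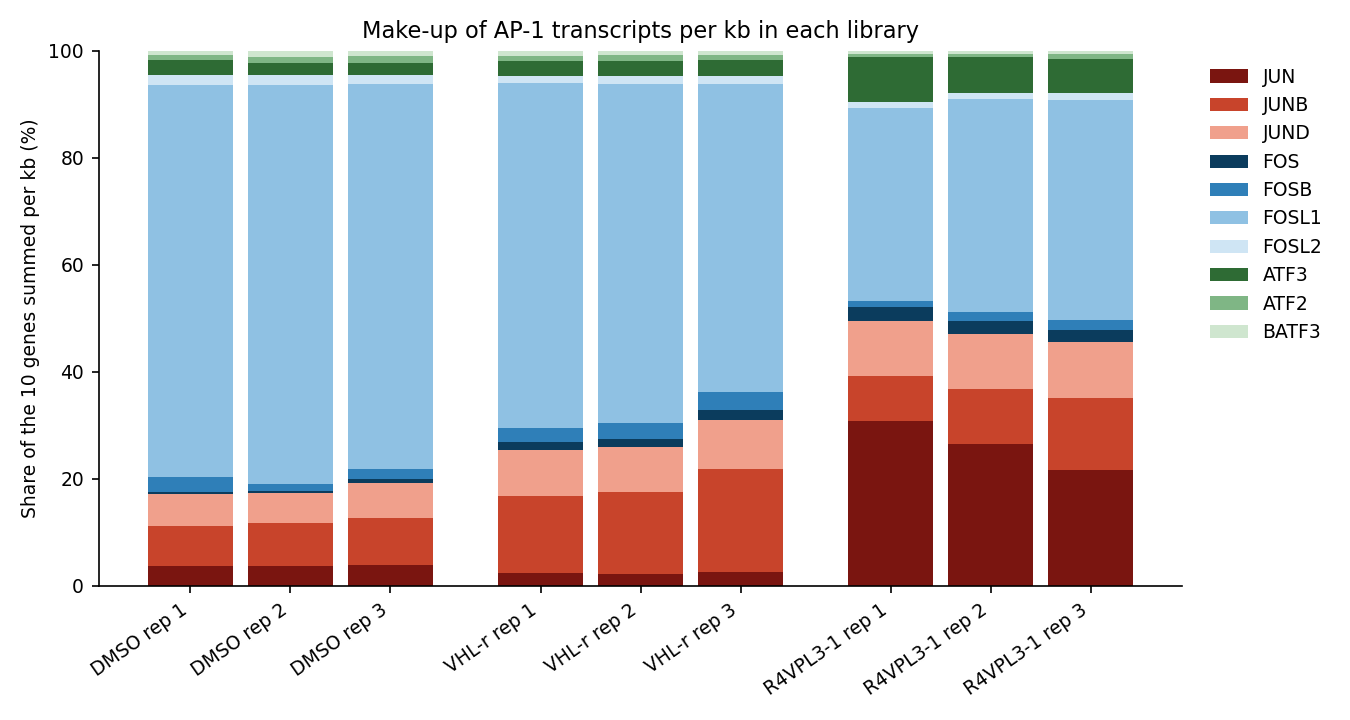
Share of each AP-1 gene in the sum of the 10 genes per kb of MANE transcript (vertical axis, percent) in each of the 9 libraries, in reds for JUN genes, blues for FOS genes and greens for ATF and BATF genes. FOSL1 fills most of each DMSO and VHL-r bar, and JUN takes 26.3% on average in the R4VPL3-1 bars against 3.74% and 2.41% in DMSO and VHL-r.

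For each member, the 3 tested genes with the smallest root mean square difference over the 9 libraries, on log2(value + 1) centred on the gene's own DMSO mean, were looked up. For JUN they were NMRAL2P at 0.62, DDIT4 at 0.62 and HMOX1, the heme oxygenase, at 0.72 log2 units. For ATF3 they were DDIT3, which encodes the stress factor CHOP, at 0.32, ANKRD37 at 0.32 and H2BC11 at 0.33. For FOS they were PARD6G-AS1 at 0.32, PNRC1 at 0.39 and GIPC2 at 0.40, and for JUND UBAP1L at 0.13, MIR22HG at 0.15 and LINC02575 at 0.16. JUNB was closest to EPHB3 at 0.07, TOB2 at 0.09 and S1PR3 at 0.09. FOSL1 was closest to DLC1 at 0.07, CCND1, the cyclin D1 gene, at 0.07 and KLF4 at 0.08. FOSB had no gene nearer than ADAMTS2 at 0.20, with TNS1 at 0.23 and ARL10 at 0.24. FOSL2 was nearest to WDR4 and ZNF710, ATF2 to ZCCHC9, HEBP2 and NFKB1, and BATF3 to C6orf47, INTS6 and WWP2, each at under 0.1. Genes that move little have small distances to many genes, so these distances are not comparable between members.

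Within 100 kb of a member lay 105 other genes, of which 39 were tested. Between R4VPL3-1 and VHL-r limma called 0 of the 39, as did edgeR and DESeq2, and 2 were higher and 2 lower at an unadjusted p under 0.05. Of all tested genes, limma called 1.14% higher and 0.729% lower in that comparison. MYSM1, the tested neighbour of JUN, differed by 0.10 (adjusted p = 0.797), and FOS had no tested neighbour. Against DMSO, 4 neighbours were higher and 6 lower in R4VPL3-1, beside 13.1% and 11.8% of all tested genes, and DESeq2 called 2 higher and 6 lower. In VHL-r 2 were higher and 8 lower by each of the tools, beside 10.3% and 9.51%. RAB3A and MPV17L2, near JUND, were higher with both compounds, MPV17L2 by log2 fold changes of 0.26 in R4VPL3-1 and 0.32 in VHL-r. POLR1G, OPA3 and ERCC2 near FOSB, MUS81 and C11orf68 near FOSL1 and CHN1 near ATF2 were lower with both, by at most 0.40. GCDH near JUNB and EIF1AD near FOSL1 were higher in R4VPL3-1, by 0.18 and 0.17. MYSM1 near JUN and TNPO2 near JUNB were lower in VHL-r by -0.27 and -0.13.

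Among 12 other AP-1 and CREB bZIP genes, 10 were tested, since BATF was listed at 0 and ATF7 was below the filter. MAFF, a small MAF partner of bZIP factors, was above VHL-r in R4VPL3-1 by a log2 fold change of 0.36 (adjusted p = 0.00586, lost without R4VPL3-1 replicate 2 at 0.0639) and above DMSO by 0.45 (adjusted p = 7.24e-05). MAF was lower than DMSO in R4VPL3-1 by -0.93 (adjusted p = 3.6e-09) and in VHL-r by -0.85 (adjusted p = 2.47e-08). Its normalized counts fell from between 1517 and 1599.7 in DMSO to between 773 and 973 with the compounds. MAFK was lower in R4VPL3-1 than in DMSO by -0.27 (adjusted p = 0.0259). That call was lost in 3 of 21 alternatives, among them without DMSO replicate 1 (0.176) or R4VPL3-1 replicate 3 (0.134). The list had median log2 fold changes of 0.09, -0.01 and -0.15 for R4VPL3-1 against VHL-r, R4VPL3-1 against DMSO and VHL-r against DMSO.

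Of 16 genes of the cascade that leads to JNK and p38, kinases that act on JUN, ATF2 or both, 15 were tested. Limma, edgeR and DESeq2 each called 0 of the 15 between R4VPL3-1 and VHL-r, with 0 higher and 1 lower at an unadjusted p under 0.05, and a median of -0.00093. In this comparison limma called 1.14% of all tested genes higher and 0.729% lower. MAP3K1, which activates the JNK pathway, was lower than DMSO in R4VPL3-1 by -0.35 (adjusted p = 0.00125) and in VHL-r by -0.24 (adjusted p = 0.0285). The second was lost in 5 of 21 alternatives (adjusted p of at most 0.138), among them those that left out DMSO or VHL-r replicate 2 or 3. In VHL-r, MAP2K3 was higher by 0.28 (adjusted p = 0.000746) and MAPK8IP3 lower by -0.26 (adjusted p = 0.00484). MAPK14, the p38α gene, and MAP2K4 were higher by 0.18 and 0.16, at adjusted p of 0.0178 and 0.0468. The MAPK14 call was lost in 3 of 21 alternatives, without DMSO replicate 1 or 3 or VHL-r replicate 1 (adjusted p up to 0.0824). The MAP2K4 call was lost in 10 of 21, which were no filter (0.0787), DESeq2 without and with the block (0.0678 and 0.105), and leaving out any DMSO or VHL-r library or R4VPL3-1 replicate 1 (up to 0.148). These are transcript levels, and kinase activity was not measured here.

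All 6 genes of the SRF list, the factor and cofactors that drive FOS through the CArG box, were tested. ELK3, a ternary complex factor that can repress FOS, fell in both compounds. For this gene the normalized counts were 3403, 3312 and 3398 in DMSO, 2769, 2610.4 and 2590.2 in VHL-r and 2329.7, 2257 and 2344 in R4VPL3-1. The log2 fold change against DMSO was -0.34 in VHL-r (adjusted p = 1.21e-05) and -0.55 in R4VPL3-1 (adjusted p = 1.41e-08). Between the compounds it was -0.20 (adjusted p = 0.0204), which was lost when VHL-r replicate 1 or 2, or R4VPL3-1 replicate 1 or 2, was left out (adjusted p up to 0.116). SRF itself was higher in VHL-r than in DMSO by 0.20 (adjusted p = 0.0117), lost without DMSO replicate 2 (0.0760) or VHL-r replicate 3 (0.0507). Limma, edgeR and DESeq2 called no gene of this list above VHL-r in R4VPL3-1, and 0 were at an unadjusted p under 0.05. Of all tested genes, limma called 1.14% higher there.

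Of 10 genes that govern the turnover of JUN and FOS proteins or mRNAs, 8 were tested, and DET1 and ITCH were listed at 0. In GENCODE 44, 35.9% and 23.9% of their exon bases also belong to a neighbour transcribed in the same direction. The overlap under the annotation used for the counting was not measured, and the cause of the listed 0 in all 9 libraries was not tested. ZFP36, which encodes the mRNA decay factor TTP and is itself an immediate-early gene, rose. Normalized counts of ZFP36 were 625, 538 and 578 in DMSO, 1047, 1055 and 1209 in VHL-r and 2066, 1951 and 1572 in R4VPL3-1, with no overlap between groups. The log2 fold change was 0.93 for VHL-r against DMSO (adjusted p = 1.03e-07), 1.67 for R4VPL3-1 against DMSO (adjusted p = 6.89e-12) and 0.75 for R4VPL3-1 against VHL-r (adjusted p = 1.14e-05). Its relatives went the other way. ZFP36L1 was lower than DMSO by -0.57 in VHL-r (adjusted p = 3.64e-06) and -0.87 in R4VPL3-1 (adjusted p = 4.95e-09), and ZFP36L2 by -0.27 (adjusted p = 0.00139) and -0.58 (adjusted p = 1.26e-07). Both were lower in R4VPL3-1 than in VHL-r by -0.31 (adjusted p = 0.0173 and 0.0028). For ZFP36L1 that call was lost when VHL-r replicate 2 or 3, or R4VPL3-1 replicate 1, was left out (adjusted p up to 0.123). RNF4, the ligase R4VPL3-1 was built to bind, is named here as the compound's target after its values were seen, and its transcripts were not called in any comparison (log2 fold change -0.08 for R4VPL3-1 against VHL-r, adjusted p = 0.894).

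Of 25 genes known as AP-1 targets in various cells, 21 were tested. For R4VPL3-1 against VHL-r limma called 1.14% of all tested genes higher and 0.729% lower. Of the targets limma called 0 higher, with 1 at an unadjusted p under 0.05, and edgeR and DESeq2 each called 1. That gene was FTH1, ferritin heavy chain, which differed by 0.15 on the log2 scale (adjusted p of 0.0562 by limma). The median of the list was -0.14 in this comparison. LIF, an interleukin-6 family cytokine, was called lower, by -0.82 (adjusted p = 0.00213), and not with the robust option (adjusted p = 0.281). Its normalized counts were 5051, 3526 and 2958 in DMSO, 1017, 1117 and 767 in VHL-r and 476, 638 and 525 in R4VPL3-1. LIF was thus lower in every compound library than in every DMSO library, with log2 fold changes of -1.97 in VHL-r (adjusted p = 3.42e-09) and -2.79 in R4VPL3-1 (adjusted p = 8.87e-12).

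Against DMSO, 2 targets were higher and 8 lower of 21 in R4VPL3-1, beside 13.1% and 11.8% of all tested genes. In VHL-r 1 was higher and 5 lower, beside 10.3% and 9.51%. CXCL8, the interleukin-8 gene, was lower by -1.24 in R4VPL3-1 (adjusted p = 1.87e-10) and -1.08 in VHL-r (adjusted p = 3.14e-09). CCND1 was lower by -0.57 (adjusted p = 2.78e-07) and -0.40 (adjusted p = 4.01e-05), the integrin gene ITGA2 by -0.34 (adjusted p = 0.000464) and -0.36 (adjusted p = 0.000366), and CD44 by -0.19 (adjusted p = 0.0018) and -0.16 (adjusted p = 0.00889). HBEGF, an EGF receptor ligand, was higher by 0.92 (adjusted p = 1.7e-09) and 1.03 (adjusted p = 5.53e-10). In R4VPL3-1 FTH1 was also higher, by 0.22 (adjusted p = 0.000372). EZR, KRT18 and TGFB1 were lower there by -0.23, -0.17 and -0.20. The last 3 calls were lost without DMSO replicate 1 (adjusted p = 0.131, 0.118 and 0.146), as was that of CD44 in VHL-r (0.0601). For EZR and TGFB1 the call was also lost without R4VPL3-1 replicate 3 (0.0874 and 0.156), and for TGFB1 without DMSO replicate 3 (0.0832). Over all 21 alternatives EZR lost its call in 3 and TGFB1 in 4, with adjusted p up to 0.131 and 0.207. MMP1, a collagenase gene with a classical AP-1 site, and MMP3 were at most 68.0 and 26.6 in any library and were not called.

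**Figure D3:**
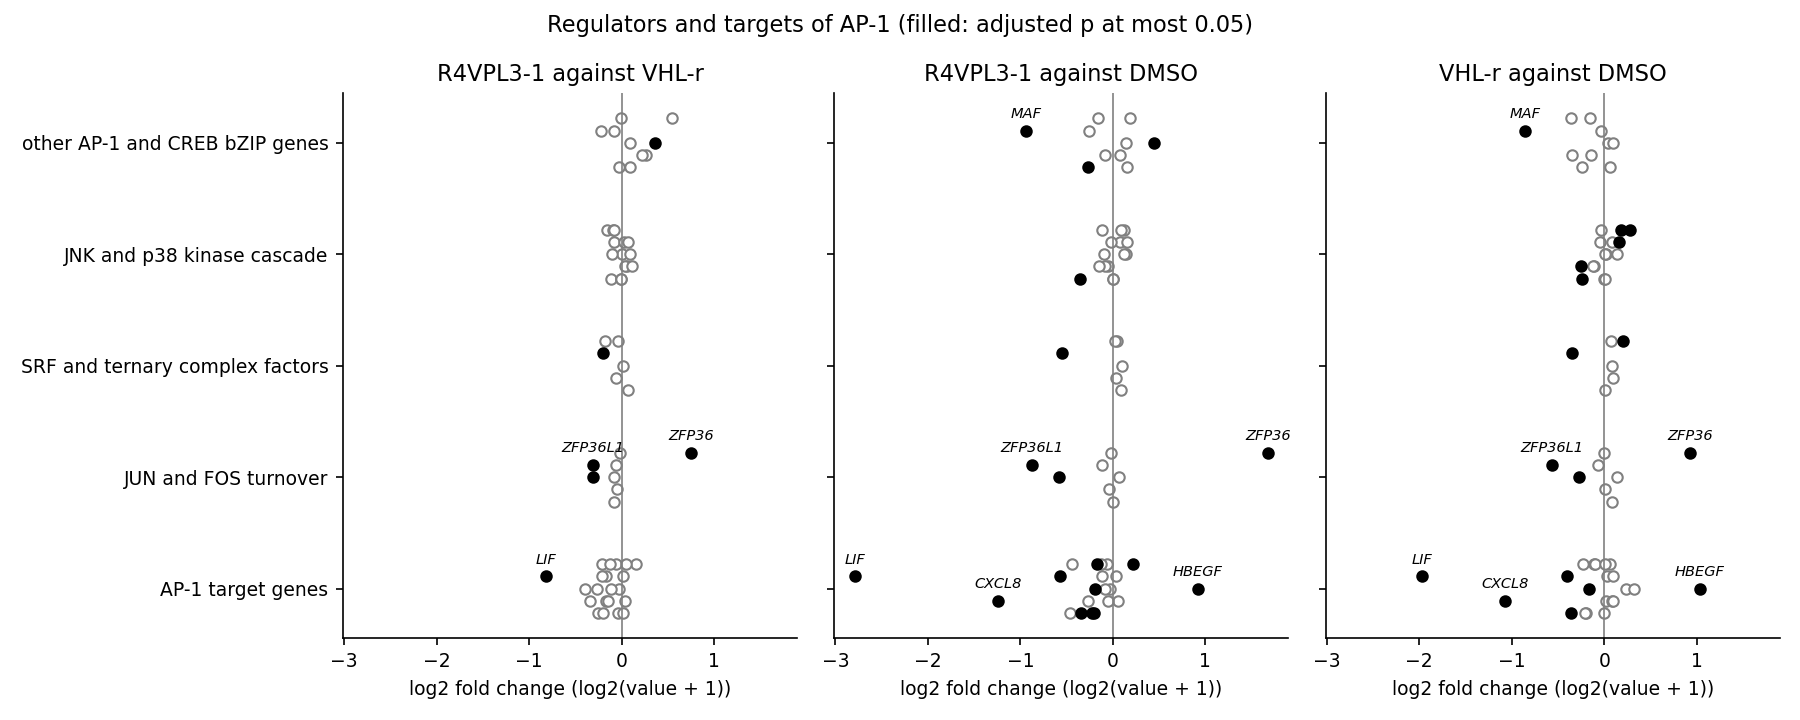
Log2 fold change (horizontal axes, on log2(value + 1)) of the tested genes of 5 lists of AP-1 relatives, upstream kinases and cofactors, turnover factors and targets, in the 3 comparisons, with filled points for a limma adjusted p of at most 0.05. Few points are filled between the compounds, with ZFP36 to the right and LIF to the left, and more are filled against DMSO.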

How the data were processed

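Per the study's methods, poly(A) RNA of 3 repeats per group was sequenced as strand-specific single reads, aligned to GRCh38 by STAR, counted per gene by htseq-count and normalized by DESeq2 (version 1.36.0 in the submitters' processing notes). The deposited signal is thus the count of reads divided by a size factor (0.934 to 1.10), given to 2 decimals. All values above 0 came out as whole reads within 0.1 of a read. No value column was left unused. A read on exons of more than 1 gene of the same strand is not counted. In GENCODE 44 such shared bases were 0.782% of the exon bases of ATF2 and none of those of the other members. The overlap under the annotation used for the counting was not measured. No run of 100 bases of a member's transcripts occurs in another gene of GENCODE 44.

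Differences were tested with limma 3.58.1 (R 4.3.3, trend option) on log2(value + 1), with a minimum mean of 10 that left 15230 genes and all 9 libraries in a fit of 1 factor, adjusted by Benjamini-Hochberg over all of them. A fold change is on that scale. The script was tested on simulated data. The 10 members were always named, genes of 5 related lists and neighbours within 100 kb where called, and 3 genes per member by likeness. Members and lists were chosen with earlier results of these data known. MANE lengths came from GENCODE 44, to which 62639 genes matched. Alternatives changed the pseudocount (0.1, 5), the filter (none, 50), the scaling (TMM, upper quartile) and the tool (the robust option, edgeR 4.0.16, DESeq2 1.42.0, the last 2 on recovered reads), added a replicate block, used only the 6 libraries compared, or left out each library. Those for list genes were added after seeing the data.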

Additional observations from a re-analysis of the deposited data

How the results depend on the processing

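Over 21 alternatives and 30 member results, 604 of 630 values kept direction and side of the threshold, 17 lost a call, 3 gained one without changing sign, and 6 changed sign, of which 1 also gained a call. The cause of these was not tested, beyond what leaving out a library shows. Members called lower in R4VPL3-1 against VHL-r numbered 1 with only the 6 libraries compared (FOSB, adjusted p = 0.000574) and from 0 to 1 with a library left out. Members called lower in R4VPL3-1 against DMSO numbered 2 with DESeq2 and 2 with DESeq2 and the replicate block (ATF2 and BATF3 lost), 3 with no filter and with upper quartile scaling (ATF2 lost), and from 2 to 4 with a library left out. Members called lower in VHL-r against DMSO numbered 2 with the robust option (JUN and FOSL1 lost). FOSB in R4VPL3-1 against DMSO was 0.0020 with TMM and 0.013 with upper quartile scaling, and -0.31 to 0.38 with a library left out, called only without DMSO replicate 1 (0.38, adjusted p = 0.0115). ATF3 in VHL-r against DMSO was -0.012 to 0.34 with a library left out. Of 41 calls on list genes, 28 held under every alternative and none changed sign. Libraries of different groups were also correlated on log2 values from which each group's own mean was taken off. Those with the same replicate number correlated at -0.0056 to 0.12 and others at -0.15 to 0.098. These ranges overlap, but the only same-number value below 0 was -0.0056, of replicate 1 of DMSO and of R4VPL3-1. Other-number values lay on both sides of 0. The numbers were not taken to pair samples in the main fit, which does not exclude a pairing. A replicate block in limma changed no member call, and over all genes it called 228 higher and 161 lower in R4VPL3-1 against VHL-r, beside 174 and 111. Depth limits BATF3, with 82 to 146 reads per library and a counting error of 8.28% to 11.0%, as large as its spread between replicates (7.04% to 9.92%).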
